A study of Mus musculus with 4 samples.

Results

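The proteasome subunit genes were described on 4 Affymetrix mouse arrays. Members were chosen by a rule on names, with earlier results of these data known. It takes all probe sets whose platform gene symbol is Psma, Psmb, Psmc or Psmd followed by a number. The rule found 78 of the 45101 probe sets, which belong to 39 of 18194 genes, with up to 8 probe sets for a gene and 1 for 19 of them. A probe set is a group of short oligonucleotides that are read together as 1 value for a transcript. The RNA was total RNA, labelled as coming from the brain, the hindbrain and the spinal cord of mice. A pair of arrays, numbered 0 and 1, received cDNA made with a Nugen amplification kit, and another pair, also numbered 0 and 1, received antisense RNA (aRNA) made with T7 amplification. The labels give no strain, age, genotype or treatment, do not say what the numbers mean, and name neither the animals nor any sharing of RNA between the preparations. The p-values below thus cover no more than the spread among these 4 arrays, and the labels do not say how much of it is technical. Sex-linked transcripts, given below, differed between the aRNA arrays.

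The proteasome is the protease that degrades ubiquitin-tagged proteins in the cytosol and nucleus of every cell. Its core is a barrel of stacked rings. The outer rings are built of α subunits (Psma genes), which hold the gate, and the inner rings of β subunits (Psmb genes), of which Psmb5, Psmb6 and Psmb7 carry the active sites. A regulatory particle caps the barrel. Its base holds a ring of ATPases (Psmc genes) that unfold substrates, and its lid, made of Psmd proteins, removes ubiquitin. Under interferon-γ, and in immune cells at all times, Psmb8, Psmb9 and Psmb10 take the places of Psmb5, Psmb6 and Psmb7 and shift the cut peptides toward those that class I molecules present. Neurons use the constitutive form, and the immune subunits in nervous tissue are known mainly from microglia and from inflammation.

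The upstream sequences of 2 immune subunit genes and of the constitutive genes they stand in for are shown because the arrays measured both sides of this exchange of subunits. Each run is the 250 bases before the transcription start in RefSeq's GRCm38.p6 table, read 5′ to 3′ on the gene's own strand, in lower case. Capitals mark matches on either strand to the interferon-stimulated element, TTCNNNGAA (a gamma-activated element, bound by STAT factors), TGACNNNGC (the core of the antioxidant response element, bound by Nfe2l1 and Nfe2l2) or CCAAT. No match overlapped another. The windows lie at chr17:34197945-34198194 on the plus strand for Psmb8, chr17:34187331-34187580 on the minus strand for Psmb9, chr14:54617996-54618245 on the minus strand for Psmb5 and chr11:70525107-70525356 on the plus strand for Psmb6.
Psmb8: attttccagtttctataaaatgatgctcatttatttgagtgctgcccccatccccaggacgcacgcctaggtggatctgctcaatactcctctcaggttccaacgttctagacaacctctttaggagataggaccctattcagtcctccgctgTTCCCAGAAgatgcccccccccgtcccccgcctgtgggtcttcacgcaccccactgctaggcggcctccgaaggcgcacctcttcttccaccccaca
Psmb9: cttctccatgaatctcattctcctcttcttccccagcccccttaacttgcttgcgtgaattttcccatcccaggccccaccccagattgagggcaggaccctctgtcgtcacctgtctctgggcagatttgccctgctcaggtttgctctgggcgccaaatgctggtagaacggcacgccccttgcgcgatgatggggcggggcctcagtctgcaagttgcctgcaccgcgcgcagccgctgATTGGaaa
Psmb5: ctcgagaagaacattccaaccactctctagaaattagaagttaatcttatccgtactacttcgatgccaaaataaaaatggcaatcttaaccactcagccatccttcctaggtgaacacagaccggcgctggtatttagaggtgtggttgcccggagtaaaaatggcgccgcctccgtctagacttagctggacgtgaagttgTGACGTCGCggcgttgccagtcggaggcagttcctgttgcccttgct
Psmb6: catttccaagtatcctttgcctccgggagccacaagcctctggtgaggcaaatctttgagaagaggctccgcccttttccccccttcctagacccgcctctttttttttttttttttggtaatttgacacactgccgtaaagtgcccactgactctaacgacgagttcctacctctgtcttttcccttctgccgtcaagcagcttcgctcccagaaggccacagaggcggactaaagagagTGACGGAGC
The Psmb8 window held 1 match to TTCNNNGAA and the Psmb9 window 1 to CCAAT, while those of Psmb5 and Psmb6 each held 1 match to TGACNNNGC. The table had 34 windows for 32 of the 39 genes. Of these 34, 1 held TTCNNNGAA (2.94%, against 7.02% of all 32851 windows), 3 held the interferon-stimulated element (8.82%, against 2.98%), 5 held TGACNNNGC (14.7%, against 10.2%) and 13 held CCAAT (38.2%, against 33.8%). CCGGAAG, the core that ETS factors bind, stood in 10 of the 34 windows, or 29.4%, against 6.91% of all windows. A match describes these letters and shows no binding.

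Values are given as log2(intensity + 16) of the deposited linear intensities, where the added constant shrinks differences between dim signals. Each array had been scaled to a 2% trimmed mean of 2500.02, so a difference in total signal cannot be seen. Background was taken as the 95th percentile of 27 control probe sets for Bacillus transcripts, which was 7.83 and 8.05 for cDNA (array 0, then array 1) and 7.12 and 7.15 for aRNA. The aRNA array numbered 0 stood apart in sex-linked transcripts: Eif2s3y, a gene of the Y chromosome, gave 7.92 and 4.75 with cDNA and 13.12 and 6.79 with aRNA, and Xist, made from the inactive X, gave 11.94 and 12.51 with cDNA and 8.55 and 15.44 with aRNA. Counts are therefore also given without that array. Markers of the labelled tissue were present in part. All 5 neuronal, 4 astrocyte, 3 oligodendrocyte and 6 microglial marker genes measured lay above background on every array, whereas of the 3 Hox genes of hindbrain and spinal cord that were measured, 1 or 2 did so, depending on the array. Of the 4 T cell genes measured, 2 lay above background on cDNA array 0 and 1 on each other array, and Cd3g lay under it on all 4. Choroid plexus genes differed between the preparations: Ttr, its main secreted product, gave 16.63 and 17.32 with cDNA and 8.15 and 9.31 with aRNA, and the summed intensity of the 3 choroid plexus genes was 103000 and 173000 with cDNA and 1040 and 735 with aRNA. All 3 were called higher on cDNA. The part of tissue content in the differences between the preparations below was not tested.

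Transcripts of the proteasome were bright on all arrays. Of the 39 genes, 36 had at least 1 probe set among the 22519 that were tested, those with a mean at or above the median of the array, and for these the brightest tested probe set stands for the gene. All 36 lay above background on every array. Their median was 14.58 and 14.34 with cDNA and 14.98 and 14.54 with aRNA, against 10.97, 10.90, 10.97 and 10.96 over all probe sets tested. The latter medians include every tested probe set of a gene and not only its brightest, so the sets are not alike. The genes left out of the tests were Psma8, an α subunit of the testis, Psmb11, a β subunit of the thymus, and Psmb9. Psma8 gave 8.84 and 5.93 with cDNA and 7.42 and 7.59 with aRNA, and Psmb11 gave 7.38 and 4.85 with cDNA and 7.06 and 5.42 with aRNA. Psmb11 thus lay under background throughout and Psma8 close to it. In tissue of mixed cells, fewer cells of a type and less RNA per cell cannot be told apart.

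**Figure D1:**
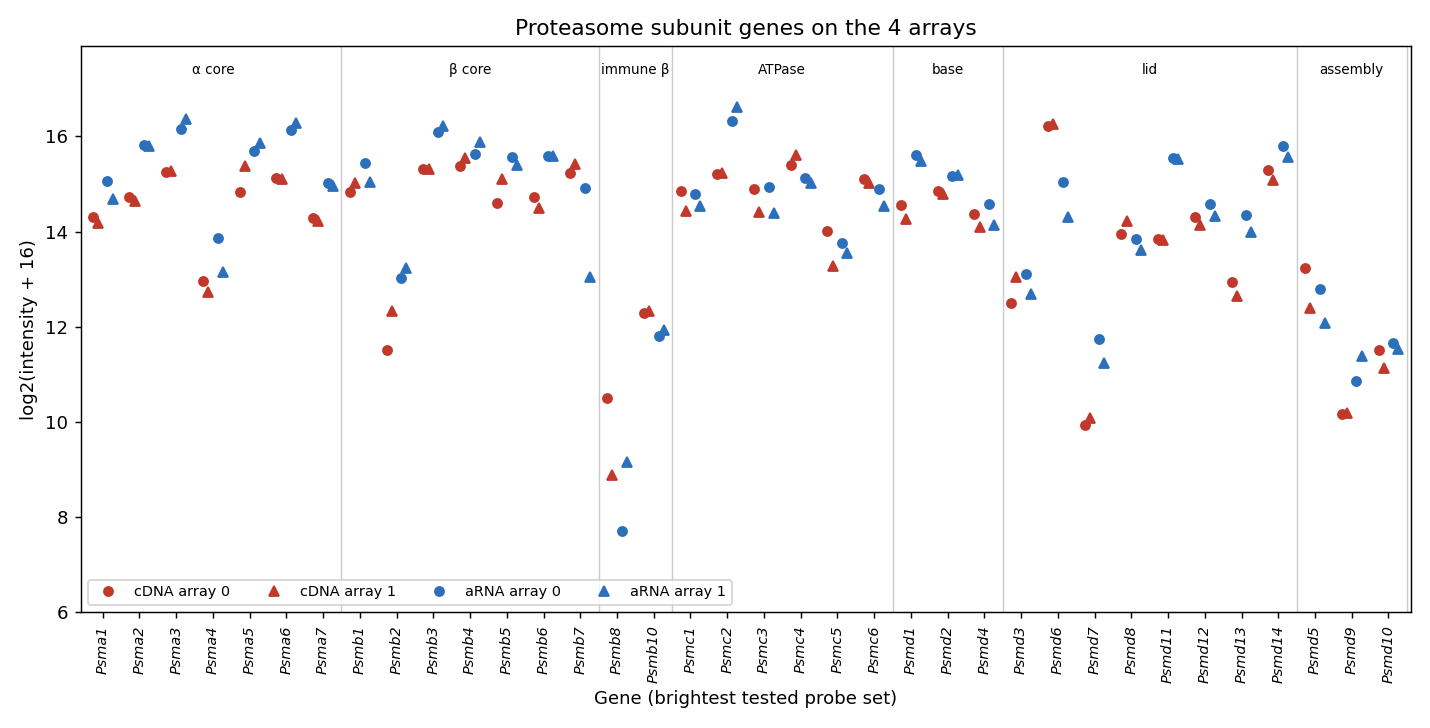
Level of each proteasome gene on the 4 arrays, as log2(intensity + 16) of its brightest tested probe set, with cDNA arrays in red left of aRNA arrays in blue and genes grouped by subunit class. Most genes lie between 12 and 16.61, Psmb8 lies lowest with 7.70 on aRNA array 0, and the red symbols of every α gene sit below the blue ones; heights of different genes come from different probes and are not comparable.

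The first comparison set the cDNA arrays against the aRNA arrays. Core genes were lower on cDNA: 10 of the 14 constitutive α and β genes were called lower and none higher. Of the 6 ATPase genes 1 was called lower, and of the 8 lid genes 3 were called lower and 1 higher. In total 15 of 36 genes (41.7%) were called lower on cDNA and 1 (2.78%) higher, against 22.9% and 21.9% of the 11945 genes tested in the same way (limma, Benjamini-Hochberg adjusted p under 0.05). Among the 4898 genes whose level averaged 12 or more, 30.0% were called lower and 26.5% higher, and of the 32 proteasome genes at that level 14 (43.8%) were lower and 1 higher. The median difference was -0.42 over the 36 genes and -0.06 over all genes. Both cDNA arrays lay under both aRNA arrays for 23 of the 36 genes and above them for 6, against 39.0% and 35.7% of all genes. Left-out arrays changed the count of lower calls to 11 (without aRNA array 0), 13 (without aRNA array 1), 10 (without cDNA array 0) and 13 (without cDNA array 1).

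**Figure D2:**
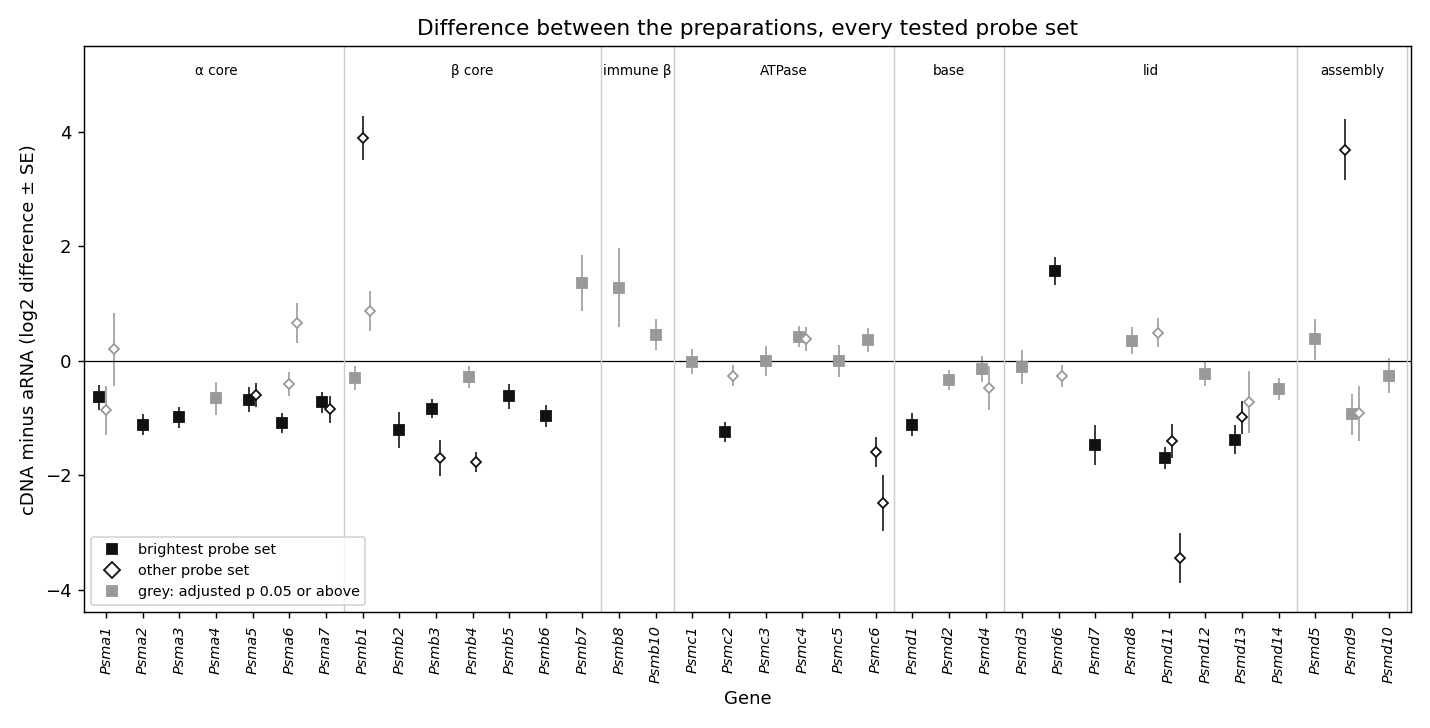
Difference between the preparations, cDNA minus aRNA, on the log2 scale with the SE of the limma fit, for each of the 59 tested probe sets of the 36 genes; filled squares are the brightest probe set of a gene, open diamonds its others, and grey marks an adjusted p of 0.05 or above. At their brightest probe set the α genes lie between -1.12 and -0.64 and the ATPases close to 0 apart from Psmc2. Single probe sets of Psmb1 (3.89), Psmd9 (3.69) and Psmd11 (-3.45) lie far from the others of their gene. The other tested probe sets of the ATPase gene Psmc6 lie at -1.59 and -2.49.

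The values of all 7 α genes with cDNA lay under both values with aRNA, as did those of 39.0% of all genes. Of the 7, 6 were called lower, against 22.9% of all genes. The 7 differences ran from -1.12 to -0.64, with a median of -0.73. Psma2 gave 14.72 and 14.64 on cDNA, against 15.82 and 15.79 on aRNA. The gap between the preparations, -1.12 (SE 0.18, limma adjusted p = 0.00134), was far wider than that within either. Psma3, whose tail helps to close the gate of the core in yeast, gave 15.26 and 15.28 on cDNA, against 16.15 and 16.36 on aRNA. It was lower by -0.99 (SE 0.18, adjusted p = 0.00229). Psma6 gave 15.13 and 15.10 on cDNA, against 16.13 and 16.29 on aRNA, at a probe set named _x_at, a suffix for probes that may also bind other transcripts. That difference was -1.09 (SE 0.17, adjusted p = 0.00131), but its tested probe set without the suffix gave -0.40 (adjusted p = 0.147). The remaining tested probe set of Psma6, also an _x_at one, went the other way at 0.66 (adjusted p = 0.158). With the mean over the gene's probe sets the difference was -0.28 (limma adjusted p = 0.285). Psma7 gave 14.29 and 14.22 on cDNA, against 15.03 and 14.95 on aRNA, a difference of -0.73 (SE 0.19, adjusted p = 0.0148). With an array left out the difference stayed between -0.77 and -0.69, and the adjusted p was 0.0571 without aRNA array 0, 0.0331 without aRNA array 1, 0.0522 without cDNA array 0 and 0.0729 without cDNA array 1. The other called genes, Psma1 and Psma5, differed by -0.64 and -0.68. Psma4, at -0.66, did not pass (adjusted p = 0.101), although it did without aRNA array 1 (-1.02, adjusted p = 0.0241).

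Of the 7 constitutive β genes, 4 were called lower and none higher, against 22.9% and 21.9% of all genes. Their median difference was -0.62. Psmb2, a β subunit without an active site, gave 11.51 and 12.33 on cDNA, against 13.03 and 13.23 on aRNA. The groups did not overlap and differed by -1.21 (SE 0.32, adjusted p = 0.0154), though the call was lost without aRNA array 1 (adjusted p = 0.0539) or cDNA array 0 (0.0847). Psmb3, also without an active site, gave 15.31 and 15.32 on cDNA, against 16.10 and 16.21 on aRNA. It differed by -0.84 (SE 0.17, adjusted p = 0.0044), and its second probe set by -1.70 (adjusted p = 0.00249). Without an intensity trend in the fit the first did not pass (adjusted p = 0.0591). Psmb4 was not called at its brightest probe set, an _x_at one (-0.29, adjusted p = 0.234), but was lower by -1.77 at the other, with 14.44 and 14.60 on cDNA, against 16.25 and 16.34 on aRNA (adjusted p = 0.000154).

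Of the 3 catalytic subunits, Psmb6 and Psmb5 were called lower and Psmb7 was not called. Psmb6, the caspase-like subunit, gave 14.72 and 14.49 on cDNA, against 15.58 and 15.58 on aRNA. It was lower by -0.97 (SE 0.19, adjusted p = 0.00358). Psmb5, the chymotrypsin-like subunit and the main target of proteasome inhibitors, gave 14.61 and 15.11 on cDNA, against 15.56 and 15.40 on aRNA. Its difference of -0.62 (SE 0.22) passed narrowly (adjusted p = 0.0472), and without aRNA array 0, aRNA array 1 or cDNA array 0 it did not (adjusted p = 0.149, 0.0579 and 0.288). Psmb7, the trypsin-like subunit, gave 15.23 and 15.42 on cDNA, against 14.91 and 13.04 on aRNA. aRNA array 1 was the low one, and the difference of 1.35 (SE 0.49) did not pass (adjusted p = 0.0505). It was 0.42 without that array (adjusted p = 0.199) and 2.29 without aRNA array 0 (adjusted p = 4.38e-05). The 3 genes have 1 probe set each.

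None of the immune subunit genes was called. Psmb8, which replaces Psmb5, gave 10.51 and 8.88 on cDNA, against 7.70 and 9.15 on aRNA. The groups overlapped (difference 1.27, SE 0.69, adjusted p = 0.171). It was called only without cDNA array 1, at 2.08 (adjusted p = 0.0382). Psmb9, which replaces Psmb6, gave 9.64 and 8.93 on cDNA, against 5.96 and 8.64 on aRNA. It lay under background on aRNA array 0 and was not tested. With that value raised to background, the mean on cDNA was at least 2.65-fold higher. That gap came mostly from the number 0 arrays, since the number 1 arrays gave 8.93 (cDNA) and 8.64 (aRNA). Psmb10, which replaces Psmb7, was above background on every array, with 12.30 and 12.34 on cDNA, against 11.80 and 11.94 on aRNA. Its difference of 0.45 (SE 0.27) did not pass (adjusted p = 0.213). Psmb8 and Psmb9 were both lowest on aRNA array 0, as were 6 of the 9 measured genes of interferon response and antigen presentation, 4 of the 6 of microglia, all 4 of astrocytes and 2 of the 5 of neurons. So were 2 of the 4 T cell genes, 1 of the 3 of choroid plexus, 0 of the 3 of oligodendrocytes and 0 of the 3 Hox genes. The share over all genes was not counted. The summed intensity of the 9 interferon response and antigen presentation genes was 75500 and 60400 with cDNA and 38300 and 76100 with aRNA. That of the 6 microglial genes was 22900 and 40800 with cDNA and 9540 and 64900 with aRNA. Tap1, the peptide transporter gene that shares its upstream region with Psmb9, gave 8.48 and 8.30 on cDNA and 7.71 and 9.30 on aRNA. Whether immune cells or their RNA had a part in the low values on aRNA array 0 was not tested.

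**Figure D3:**
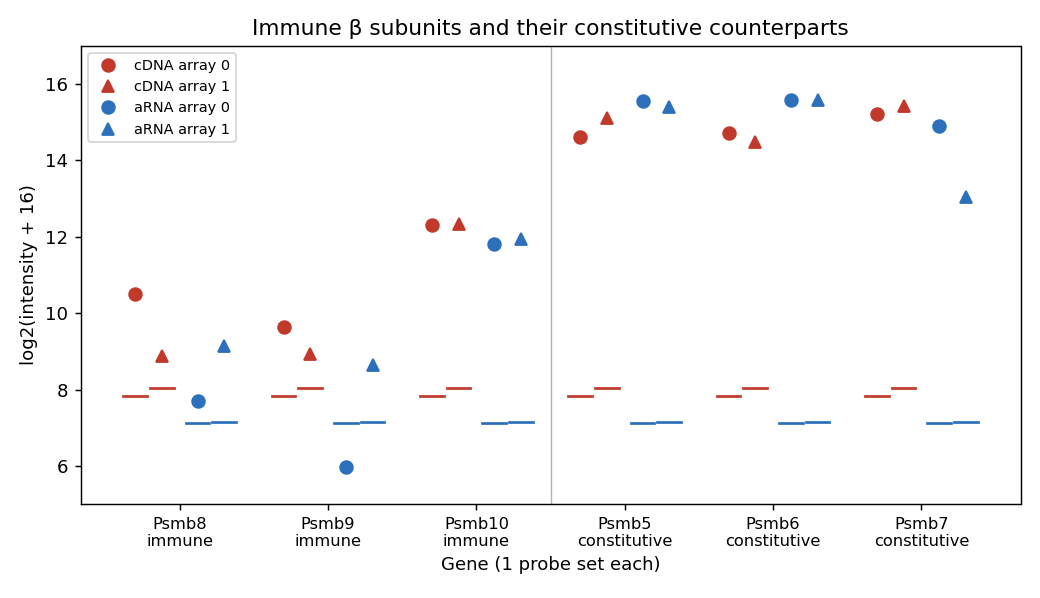
Level, as log2(intensity + 16), of the immune β subunit genes Psmb8, Psmb9 and Psmb10 and of their constitutive counterparts Psmb5, Psmb6 and Psmb7 on each array, cDNA arrays in red and aRNA arrays in blue; short bars mark each array's background level. Psmb9 falls under background on aRNA array 0 (5.96), Psmb8 spreads from 7.70 to 10.51, and Psmb7 is low on aRNA array 1 alone (13.04).

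The regulatory particle had 17 tested genes, of which 5 were called lower and 1 higher on cDNA, against 22.9% and 21.9% of all genes. Of its 6 ATPases, only Psmc2 was called. It gave 15.21 and 15.24 on cDNA, against 16.33 and 16.61 on aRNA (difference -1.25, SE 0.18, adjusted p = 0.000778). That is an _x_at probe set, and the gene's other tested one gave 15.27 and 15.04 on cDNA and 15.41 and 15.43 on aRNA, a difference of -0.26 (adjusted p = 0.281). Psmc1, Psmc3 and Psmc5 differed by -0.02, 0.00 and -0.01 with SE of 0.22, 0.26 and 0.28. Their arrays overlapped. Psmc4 (0.42) and Psmc6 (0.36) did not pass either (adjusted p = 0.0958 and 0.194), but the other 2 tested probe sets of Psmc6 were called lower (-1.59 and -2.49).

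Of the base subunits that are no ATPases, Psmd1, a scaffold, was called lower and the scaffold Psmd2 (-0.34) and the ubiquitin receptor Psmd4 (-0.14) were not (adjusted p = 0.161 and 0.668). Psmd1 gave 14.56 and 14.27 on cDNA, against 15.60 and 15.48 on aRNA (difference -1.12, SE 0.20, adjusted p = 0.00225). In the lid, Psmd13 gave 12.94 and 12.64 on cDNA, against 14.35 and 13.99 on aRNA (difference -1.38, SE 0.25, adjusted p = 0.00243). A second probe set of it was also called lower (-0.99, adjusted p = 0.0231). Psmd7, the partner of the deubiquitinase Psmd14, gave 9.94 and 10.08 on cDNA, against 11.74 and 11.25 on aRNA (difference -1.48, SE 0.35, adjusted p = 0.00934). Without aRNA array 0 it did not pass (-1.24, adjusted p = 0.0881). Psmd14 itself differed by -0.50 and did not pass (adjusted p = 0.0612), and Psmd3, Psmd8 and Psmd12 lay between -0.23 and 0.35. Psmd6 was the 1 gene called higher: it gave 16.21 and 16.26 on cDNA, against 15.04 and 14.30 on aRNA (difference 1.57, SE 0.25, adjusted p = 0.00125), while its other probe set, nearly as bright, gave 15.14 and 15.44 on cDNA and 15.59 and 15.54 on aRNA (-0.27, adjusted p = 0.27).

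Psmd11, the lid subunit that links the lid to the core, had the largest difference of the 36 genes at the brightest probe set, and 8 probe sets in all. At the brightest, an _s_at one, it gave 13.85 and 13.82 on cDNA, against 15.54 and 15.52 on aRNA (difference -1.70, SE 0.19, adjusted p = 0.000233). The suffix _s_at marks probes shared by several transcripts. At a second the gene was lower by -3.45, with 8.52 and 9.68 on cDNA, against 12.54 and 12.57 on aRNA (adjusted p = 0.000373), and at a further one by -1.40 (adjusted p = 0.00615). At the remaining tested one it gave 14.03 and 14.46 on cDNA, against 13.53 and 13.97 on aRNA, a difference of 0.49 that did not pass (adjusted p = 0.146). The other 4 were not tested, and each lay under background on at least 1 array.

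The assembly chaperones Psmd5, Psmd9 and Psmd10, which help to build the ATPase ring and are no parts of the finished particle, were not called at their brightest probe sets (0.37, -0.94 and -0.26, adjusted p = 0.443, 0.0637 and 0.526). Psmd10 is on the X chromosome and gave 11.52 and 11.13 with cDNA and 11.65 and 11.53 with aRNA.

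Of the 15 genes with more than 1 tested probe set, 7 (46.7%) had differences of both signs, against 55.2% of the 5034 such genes on the array, and the median range within a gene was 1.07, against 1.53. No proteasome gene had called probe sets in opposite directions, but the share of all genes with such calls was not counted. The widest ranges were in Psmd9 (4.63), Psmb1 (4.20), Psmd11 (3.94) and Psmc6 (2.85), of which Psmd9, Psmb1 and Psmc6 were picked out after their values were seen. Psmb1, a β subunit without an active site, gave 14.84 and 15.02 on cDNA, against 15.44 and 15.05 on aRNA at its brightest probe set (-0.31, adjusted p = 0.261). At another it gave 12.49 and 13.13 on cDNA, against 9.22 and 8.61 on aRNA (3.89, adjusted p = 0.000141). Psmd9 at 1 probe set gave 11.27 and 10.35 on cDNA, against 7.31 and 6.93 on aRNA, where array 1 was under background; it was at least 11.9-fold higher on cDNA (adjusted p = 0.000747), while its other probe sets gave -0.94 and -0.92 and did not pass. Psmc6 ran the other way, from 0.36 at its brightest probe set to -1.59 (adjusted p = 0.00163) and -2.49 (adjusted p = 0.00383). Over all 59 tested member probe sets, 24 were called lower and 3 higher, against 22.9% and 20.2% of all probe sets tested, with a median of -0.50, against -0.11. The 19 untested probe sets all lay under background on at least 1 array, 7 of them on every array.

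Other genes of the pathway were taken from a list of 26, of which 18 were tested; the others were not analysed here. On cDNA, 3 were called higher and 5 lower, with a median of -0.07, against 21.9% and 22.9% of all genes and a median of -0.06; the counts are near those shares. Of the 5 assembly factors of the core 3 were called lower: Psmg1 by -1.21 and its partner Psmg2 by -1.25 (adjusted p = 0.0132 and 0.00507), and Psmg3 by -0.99 (adjusted p = 0.0271). Psmg4 (-1.52) and Pomp (-0.05), the maturation factor, did not pass (adjusted p = 0.065 and 0.846). Sem1, a small lid subunit outside the symbol rule, was lower by -0.76 (adjusted p = 0.0232). Psme1, a subunit of the interferon-inducible activator, was higher by 1.40 (adjusted p = 0.0177), with 11.68 and 12.02 on cDNA, against 10.01 and 10.89 on aRNA. Psmf1, a proteasome inhibitor in the test tube, was higher by 1.42 (adjusted p = 0.00494) at its brightest probe set and lower by -0.90 (adjusted p = 0.0387) at another. The shuttle genes Ubqln1 and Ubqln2, which carry ubiquitinated proteins to the proteasome, were called in opposite directions, -1.34 and 1.11 (adjusted p = 0.000997 and 0.00212). The call of Ubqln1 was made at an _s_at probe set, and its other tested one gave 0.98 and did not pass (adjusted p = 0.0736). Nfe2l1, the factor that raises subunit genes when the proteasome is inhibited, differed by 0.22 (adjusted p = 0.402).

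Number 1 was then compared with number 0, with the preparation in the model. The model averages the differences within cDNA and within aRNA, whose correlation over the tested probe sets was 0.041. The aRNA arrays also differed in the sex-linked transcripts given above, and any part of this in the comparison was not tested. No proteasome gene was called, and the lowest adjusted p was 0.779 (limma), whereas 0.0837% of all genes were called higher on number 1 and 0.0% lower. At an unadjusted p under 0.05 there were 3 of the 36, Psmb7, Psmc3 and Psmd5, against 6.02% of all genes. Of the 59 member probe sets none was called and 3 had an unadjusted p under 0.05, whereas over all probe sets 0.0533% were called higher, 0.00888% lower, and 5.86% had such a p. The median difference was -0.10 over the 36 genes, -0.04 within cDNA and -0.14 within aRNA, and over all genes it was -0.01, -0.04 and 0.02 in that order. In 17 of the 36 genes both number 1 arrays lay below the number 0 array of their preparation and in 8 both lay above, against 26.6% and 24.9% of all genes. The median absolute difference was 0.20 within cDNA and 0.24 within aRNA, against 0.34 and 0.31 over all genes. Over the 4898 genes whose level averaged 12 or more it was 0.24 and 0.26, close to the values of the proteasome genes.

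The genes with the largest difference of the same sign in both preparations were Psmd5, Psmc3, Psmb2 and Psma4, none of which passed. Psmd5 gave 12.39 (cDNA) and 12.09 (aRNA) on the number 1 arrays, against 13.23 and 12.80 on the number 0 arrays, a difference of -0.78 (unadjusted p = 0.0179, limma adjusted p = 0.779). Psmc3 gave 14.42 and 14.39 on number 1, against 14.90 and 14.93 on number 0, a difference of -0.52 (unadjusted p = 0.0207, adjusted p = 0.779). Both genes were lower on number 1 by much the same amount in each preparation. Psmb2 differed by 0.51 and Psma4 by -0.48 (adjusted p = 0.871 for each). Psmb7 (-0.84, adjusted p = 0.829) had 0.19 within cDNA and -1.87 within aRNA. Of the 18 related genes tested, none was called and none had an unadjusted p under 0.05, although 2 of the 6 microglial markers were called.

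**Figure D4:**
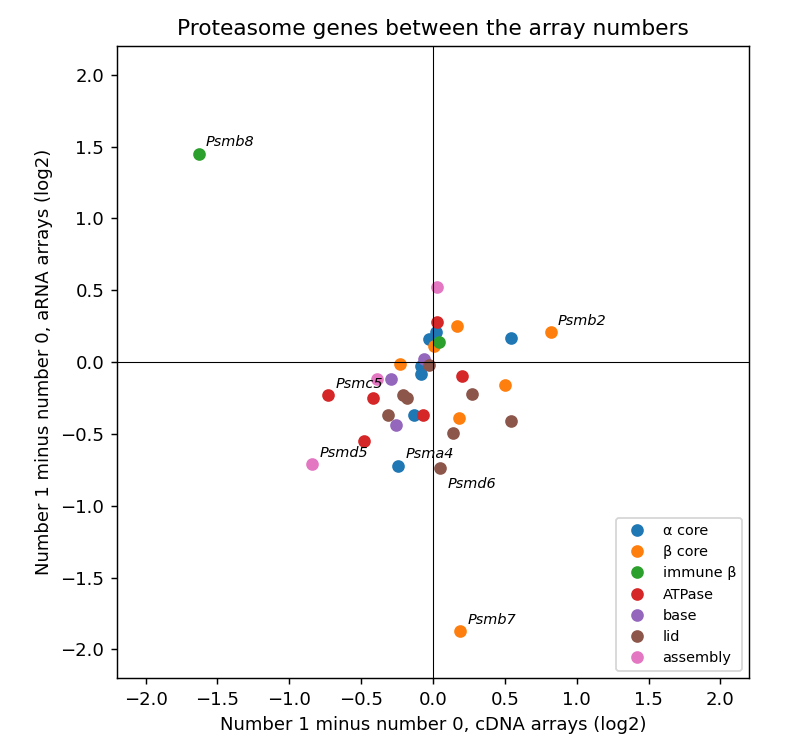
Difference between the array numbered 1 and the array numbered 0 on the log2 scale, within the cDNA arrays (horizontal) and within the aRNA arrays (vertical), for the brightest tested probe set of each of the 36 proteasome genes, coloured by subunit class. Most points lie within 0.5 of 0 on both axes; Psmb8 lies at -1.63 and 1.45, and Psmb7 at 0.19 and -1.87.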

How the data were processed

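Probe set values of 4 arrays were used. Per the labels, 2 carried cDNA target and 2 aRNA target. The authors deposited linear intensity values for every probe set; how probes were summarised is not stated in the labels or the file. Their 2% trimmed mean was equal on all arrays, so no further scaling was applied. From these, log2(intensity + 16) was computed. The 64 control probe sets were left out, and the 22519 of 45037 others with a mean at or above the median (8.38) were tested with limma 3.58.1 in R 4.3.3 (lmFit, eBayes with an intensity trend, Benjamini-Hochberg over all tested probe sets, threshold 0.05). Preparation was fitted alone (2 residual degrees of freedom), and number with preparation (1 residual degree of freedom). The number of arrays limits the precision. The fit was tested on simulated data. An exact permutation test of 2 arrays against 2 cannot go below p = 0.333, so none was run.

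A gene is represented by its tested probe set with the highest mean. Gene symbols came from the platform annotation and, for genes outside the symbol rule, were updated through RefSeq gene identifiers. Genes given array by array were, in each subunit class, up to 4 called genes with the largest difference, the immune subunits and their counterparts, and for the numbers the 4 genes with the largest difference of one sign in both preparations; related genes were named where called, up to 8, and others are marked in the text or given by value only. Pseudocount, filter, scaling, trend, probe set choice, replicate block and left-out arrays were varied. The members and lists were chosen with earlier results of these data known. Plots used matplotlib 3.10.9 under Python 3.11.15.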

Additional observations from a re-analysis of the deposited data

Results flagged for a closer look

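Psmb8 and Psmb9 differed in opposite directions between the numbers in the 2 preparations. The third immune subunit gene Psmb10 did not (0.04 within cDNA, 0.14 within aRNA). The flagging rule required differences above the median absolute difference over all tested probe sets (0.37 for cDNA, 0.33 for aRNA). That Psmb8 and Psmb9 exceeded it is therefore no further result. Both genes were dim, and a median over probe sets of like level was not computed. Psmb8 was lower on number 1 within cDNA (-1.63) and higher within aRNA (1.45). Psmb9 was lower by -0.71 within cDNA and higher by 2.69 within aRNA, where the number 0 array lay under background. Each value rests on 1 array against 1, and the difference between the preparations was not tested.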

How the results depend on the processing

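The count of proteasome genes lower on cDNA stayed between 10 and 17 in all alternatives, against 15, with its minimum without an intensity trend or without cDNA array 0 and its maximum with arrays centred on their median, which moved the median of all probe sets from -0.11 to -0.25. The median of the member genes tested stayed between -0.57 and -0.31. The value of -0.31 came without a filter, which takes in 39 genes and moved the median of all probe sets to 0.01. The count of higher genes was 2 in place of 1 with the filter at the 75th percentile, with the mean over a gene's probe sets, with a pseudocount of 64, with number as replicate block, and without probe sets named _x_at or _s_at; with arrays left out it ran from 1 to 2. Centring gave 1 gene with called probe sets in opposite directions in place of 0, and medians of -0.88 for the α genes and -0.49 for the base subunits. With the mean over probe sets the medians were -0.66 (α), -0.97 (β) and 0.37 (assembly chaperones), and the filter at the 75th percentile, which leaves fewer genes, gave 0.05 for the last. Without _x_at and _s_at probe sets the β median was -0.84, the lid median -0.17, Psmd11 turned to 0.49 (adjusted p = 0.135), which is its next brightest probe set, and Psma6 (-0.40) and Psmc2 (-0.26) lost their calls. Left-out arrays gave -0.96 to -0.77 for the α, -0.84 to -0.37 for the β and -0.23 to 0.28 for the ATPase median, and 3 to 4 related genes lower, against 5; without a trend there were 3. The causes of the other changes were not tested. The numbers are not known to pair the arrays (correlation of their differences 0.041 over the tested probe sets). As a replicate block they gave 16 lower genes, with Psmb7 called (adjusted p = 0.00775). No gene was called between the numbers under any alternative run. Leaving out an array was not run there, since no residual degree of freedom would remain. Signal near background limits Psmb8, Psmb9, Psmb11 and Psma8.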
